A study of Homo sapiens with 6 samples.

Results

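The AP-1 and related bZIP transcription factor genes were compared between untreated GEN2.2 cells and GEN2.2 cells exposed to ODN2006 for 2 h. The set comprised 10 genes, taken as every probe whose platform gene symbol was FOS, FOSB, FOSL1, FOSL2, JUN, JUNB, JUND, ATF3, BATF or MAFF, which gave 14 probes of the 47218 on the array and 10 genes of the 20041 with a symbol. RNA was hybridised to 6 Illumina HT-12 v4 human expression arrays, 3 of GEN2.2 cells stimulated with 1 µM ODN2006 for 2 h and 3 of untreated GEN2.2 cells in log-phase growth. GEN2.2 is a single human cell line from a leukaemia of plasmacytoid dendritic cells, and ODN2006 is a synthetic CpG oligonucleotide that activates Toll-like receptor 9 (TLR9). The 6 arrays include no control oligonucleotide and no untreated culture stated to be harvested after the same 2 h. A change after ODN2006 therefore cannot be told apart from an effect of any oligonucleotide, of time or of handling. Separate cultures behind the replicates are not stated, so each p-value reflects the spread of these samples alone, and that spread may be technical.

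Proteins of the basic leucine zipper (bZIP) class bind DNA as dimers, a basic region touching the DNA and a leucine zipper holding the partners together. AP-1 is the family of such dimers formed by FOS and JUN proteins, which prefer the site TGACTCA. ATF and CREB proteins prefer TGACGTCA, and MAF and BATF proteins join further combinations. In cells that sense CpG DNA, TLR9 signals through the adaptor MyD88 to MAP kinases and to NF-kB, and MAP kinases raise AP-1 activity by phosphorylating the proteins and by inducing several of their genes.

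The RefSeq promoters (GRCh38.p14) of the 4 members that rose (ATF3, FOSB, JUN and JUNB) and of MAFF, FOS and JUND are shown to set the sites these factors bind beside the genes that encode them. Each sequence is the 210 bases before the annotated start, 5′ to 3′ on the gene's strand, with capitals for the core TGACG on either strand and for the 8-base sites TGACGTCA, TGACGTAA and TGACATCA, the first 2 of which contain it.
FOSB, chr19:45467786-45467995, plus strand: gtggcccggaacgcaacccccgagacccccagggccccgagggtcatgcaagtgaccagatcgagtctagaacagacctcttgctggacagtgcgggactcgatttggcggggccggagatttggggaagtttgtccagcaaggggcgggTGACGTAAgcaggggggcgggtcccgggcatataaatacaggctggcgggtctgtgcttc
JUN, chr1:58784048-58784257, minus strand: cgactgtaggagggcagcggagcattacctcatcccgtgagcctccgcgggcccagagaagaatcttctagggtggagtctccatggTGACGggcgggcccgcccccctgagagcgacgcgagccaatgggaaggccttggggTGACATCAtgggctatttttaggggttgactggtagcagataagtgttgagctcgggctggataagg
JUNB, chr19:12791276-12791485, plus strand: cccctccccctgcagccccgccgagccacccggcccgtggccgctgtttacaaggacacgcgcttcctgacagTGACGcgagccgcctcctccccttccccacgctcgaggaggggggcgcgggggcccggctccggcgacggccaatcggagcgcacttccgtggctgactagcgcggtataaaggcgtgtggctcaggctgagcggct
ATF3, chr1:212565197-212565406, plus strand: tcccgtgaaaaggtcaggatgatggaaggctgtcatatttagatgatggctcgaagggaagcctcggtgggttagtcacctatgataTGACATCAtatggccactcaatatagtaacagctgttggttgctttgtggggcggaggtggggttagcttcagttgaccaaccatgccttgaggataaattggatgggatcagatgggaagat
MAFF, chr22:38201784-38201993, plus strand: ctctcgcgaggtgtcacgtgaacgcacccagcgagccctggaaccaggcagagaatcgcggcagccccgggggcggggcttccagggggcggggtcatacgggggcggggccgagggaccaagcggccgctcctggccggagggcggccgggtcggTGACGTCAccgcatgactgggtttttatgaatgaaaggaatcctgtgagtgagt
FOS, chr14:75278618-75278827, plus strand: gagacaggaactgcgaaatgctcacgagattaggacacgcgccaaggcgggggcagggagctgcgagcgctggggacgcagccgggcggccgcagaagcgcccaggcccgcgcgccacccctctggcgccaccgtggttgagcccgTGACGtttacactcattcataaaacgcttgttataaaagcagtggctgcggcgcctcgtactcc
JUND, chr19:18281623-18281832, minus strand: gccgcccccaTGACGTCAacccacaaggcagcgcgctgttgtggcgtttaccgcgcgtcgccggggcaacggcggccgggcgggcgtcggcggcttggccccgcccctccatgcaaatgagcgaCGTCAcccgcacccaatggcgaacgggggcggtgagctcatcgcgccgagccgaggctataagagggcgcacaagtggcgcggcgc
ATF3 and MAFF each have a second annotated start, whose promoters held neither TGACG nor these 8-base sites in the 300 bases searched. Only the starts in this annotation were searched, and which starts these cells use was not tested. Sites at any other start of ATF3 would be missed. FOSL1 had no entry.

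The search covered 250 bases before and 50 after each start, both strands, for 9 member genes, and each share is of 35116 promoters of the same length. Members are counted by gene, over all annotated starts of a gene (11 promoters in all), whereas each share counts single promoters, so the 2 are not strictly alike. TGACGTCA stood in the promoters of JUND (200 bases before the start) and MAFF (54 bases before), and in 1.85% of all promoters. FOSB held TGACGTAA at 60 bases before the start (0.416% of all promoters), and JUN at 67 and ATF3 at 123 bases before it held TGACATCA (2.61%). Both of these variants were added to the search after the member sequences had been read. The AP-1 site TGACTCA stood in FOSL2 alone of the 9 genes, just after the start (4.95% of all promoters), and TGACG in 7 of the 9 (24.6%), FOS and JUNB among them. A kB site was found at the second start of MAFF alone (11.3% of all promoters) and the CArG box of serum response factor in none of the 9 (1.29%). Sites further than 250 bases before a start lay outside the search, so a miss does not show that the gene lacks the site. TATAAA was found 33, 30 and 31 bases before the start in FOS, FOSB and JUNB. It also stood 230 bases before the second start of ATF3, and in 11.5% of all promoters. A match describes letters in this window and does not show binding.

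Between 13454 and 15447 probes were detected per array, and arrays correlated at 0.983 to 0.991 within a group and at 0.960 to 0.974 between groups. Of 17 plasmacytoid dendritic cell markers 15 were tested and none passed in limma (before adjustment 1 was lower and 0 were higher at p under 0.05), while LILRA4 was detected on 1 ODN2006 array and PTCRA on none. Of 12 markers of monocytes and conventional dendritic cells 9 were tested and none passed in limma, also at an unadjusted p under 0.05. CD14, LYZ, CSF1R and CD1C were detected on all 6 arrays, CLEC9A, XCR1 and S100A8 on none, and the summed linear signal of the 12 was 10045 to 13026 after ODN2006 and 12282 to 14061 in untreated cells. Whether these signals had a part in the results was not tested, and in bulk RNA fewer cells of a type and less RNA per cell cannot be told apart. Among markers of other cells, 4 of 9 for T and NK cells, 2 of 5 for B cells and 2 of 5 for stromal cells were tested, and none passed in limma, adjusted or not, and none of 5 for red cells and platelets met the filter. CD3D, CD3E, PAX5, COL1A1 and HBB were detected on no array, whereas CD3G, CD5, CD6, NKG7, CD79A, CD79B and TAGLN were detected on all 6. CD6 averaged 8.95 after ODN2006 and 9.07 in untreated cells, and CD79B averaged 7.70 after ODN2006 and 7.91 in untreated cells. GAPDH differed by -0.07 ± 0.15 SE and ACTB by -0.03 ± 0.14.

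Of the 10 genes, 8 could be tested, since a probe entered the test where 1 group or both had it detected, at a detection p under 0.01, on all 3 arrays. By the brightest tested probe of each gene, 4 rose at an adjusted p under 0.05 after ODN2006, namely ATF3, FOSB, JUNB and JUN. None fell in limma at any p, since all 8 changes were above 0. FOS, FOSL2, JUND and MAFF did not pass, although for MAFF the 2 dimmer probes rose. Over all 8706 tested genes 3.41% rose and 1.81%, or 158 genes, fell. With the replicate number as a block, a fit that compares same-numbered arrays, 6 members rose, as did 4.65% of all tested genes (405), and 358 of all genes fell. The median log2 change was 1.55 over the 8 tested members and -0.05 over all tested genes. The groups did not overlap, with ODN2006 higher, for 5 of the 8 members and for 8.48% of all tested genes. The members were chosen with earlier results of these data known. Contrasts of members with all tested genes or probes are therefore not independent evidence about the family. By branch, 1 of 3 tested genes rose in the FOS branch, 2 of 3 in the JUN branch, and ATF3 in the ATF branch. Changes are limma log2 differences of ODN2006 minus untreated with Benjamini-Hochberg adjustment over 13816 probes, and levels are quantile-normalised log2 intensities. Levels are set against each other only within a probe.

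**Figure D1:**
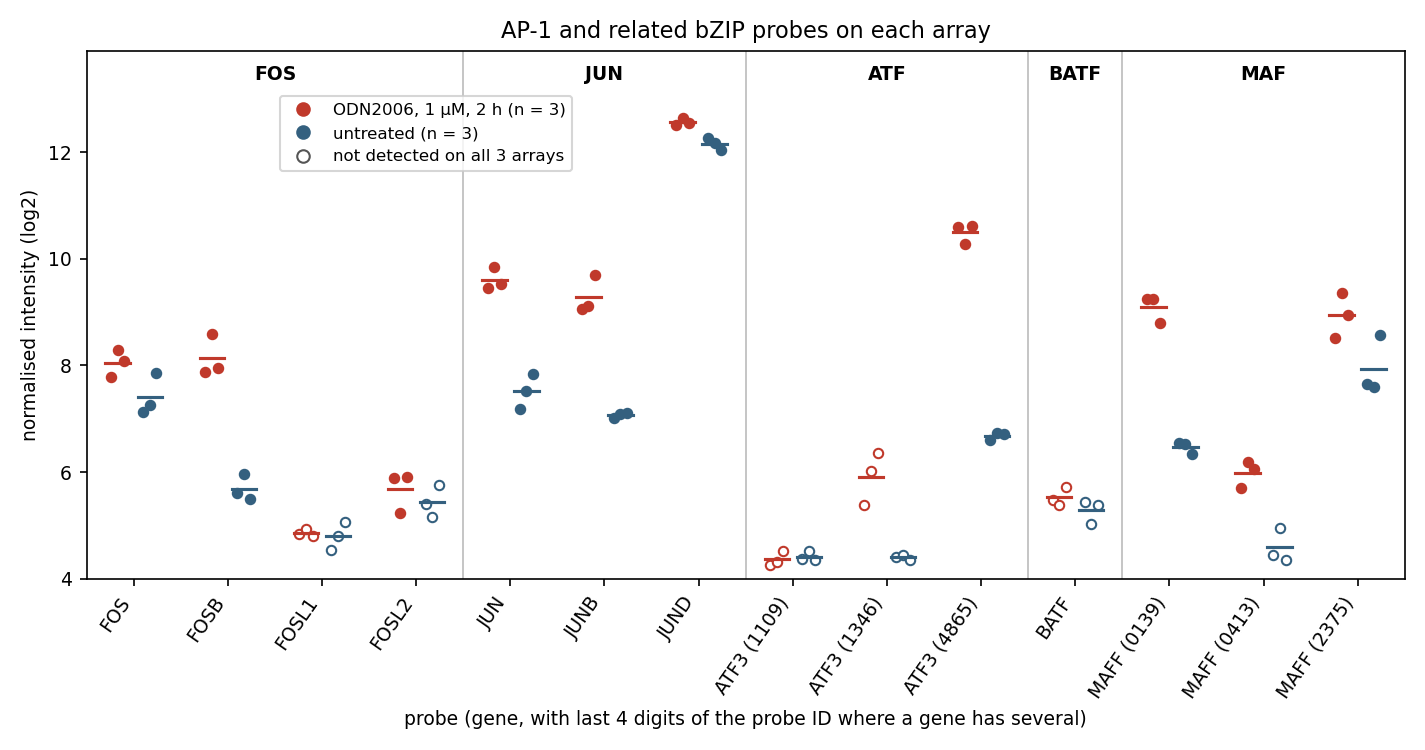
Normalised log2 intensity (vertical axis) of the 14 member probes (horizontal axis) on each array, ODN2006 in red left of untreated in blue, with bars at the group means (n = 3) and open points where a group was not detected on all 3 arrays. The groups stand apart for FOSB, JUN, JUNB, JUND, the ATF3 probes ILMN_2374865 and ILMN_1791346, and the MAFF probes ILMN_1680139 and ILMN_1700413. FOSL1 was detected on no array, and BATF lies near the detection limit in both groups.

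In the FOS branch, whose proteins form no stable dimers with themselves and bind DNA mainly as partners of JUN proteins, FOSB was the gene that rose. FOSB (probe ILMN_1751607) read 7.87, 8.58 and 7.95 on the ODN2006 arrays, against 5.60, 5.96 and 5.50 on the untreated arrays. The lowest ODN2006 array lay well above the highest untreated one, and the change was 2.45 ± 0.20 SE (5.46-fold, adjusted p = 8.08e-06). Its log2 change ranked 51 among the 8706 tested genes. Without background correction it was 1.29, and it still passed (adjusted p = 0.000265).

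FOS, the prototype immediate early gene, read 7.78, 8.30 and 8.08 on ODN2006 arrays, against 7.13, 7.26 and 7.87 on untreated arrays (ILMN_1669523). The groups overlapped, because untreated replicate 3 lay above the lowest ODN2006 array. The change of 0.63 ± 0.21 SE (95% interval 0.18 to 1.09) did not pass (adjusted p = 0.129). It passed with the replicate block (adjusted p = 0.0386), with array weights (0.79, adjusted p = 0.0217), and without untreated replicate 3, when it was 0.86 (adjusted p = 0.0281). Same-numbered arrays differed by 0.65, 1.04 and 0.21. Untreated replicate 3 had the highest of the 3 untreated values for 6 of the 14 member probes, FOS and JUN among them, and the lowest for 6 others, FOSB and JUND among them.

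FOSL2, which encodes FRA2, a FOS relative without a strong activation domain, read 5.90, 5.24 and 5.91 on ODN2006 arrays, against 5.40, 5.16 and 5.75 on untreated arrays. The groups overlapped, and the change of 0.24 did not pass (95% interval -0.22 to 0.70, adjusted p = 0.716). This probe was detected on 3 ODN2006 arrays and on 2 untreated arrays, so its values stand close to background. FOSL1, which encodes the related FRA1, was detected on no array of either group, at 4.86 ± 0.07 after ODN2006 and 4.80 ± 0.26 in untreated cells (SD, n = 3 each), and was not tested.

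JUN proteins pair with each other as well as with FOS and ATF proteins. JUN, whose protein is activated by JNK kinases and is known to bind its own promoter, read 9.46, 9.84 and 9.52 after ODN2006, against 7.18, 7.53 and 7.84 in untreated cells (ILMN_1806023). The groups stood apart, with a change of 2.09 ± 0.19 SE (4.25-fold, adjusted p = 1.50e-05). JUNB, a weaker activator that can oppose JUN, read 9.06, 9.12 and 9.69 after ODN2006, against 7.01, 7.08 and 7.10 in untreated cells (ILMN_2086077). The untreated arrays lay close together, the groups did not overlap, and the change was 2.23 ± 0.18 SE (4.68-fold, adjusted p = 5.76e-06). Without background correction JUN and JUNB each changed by 1.60 and passed (adjusted p = 3.58e-05 and 5.42e-05).

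JUND, which many cell types express without stimulation, was bright in both groups, at 12.50, 12.63 and 12.54 after ODN2006, against 12.27, 12.17 and 12.03 in untreated cells (ILMN_1810214). The groups did not overlap, but the change of 0.40 ± 0.14 SE (1.32-fold, 95% interval 0.10 to 0.71) did not pass (adjusted p = 0.163, and 0.0700 with the replicate block). Only the fit without background correction, of the alternatives run, called it (0.39, adjusted p = 0.0327).

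**Figure D2:**
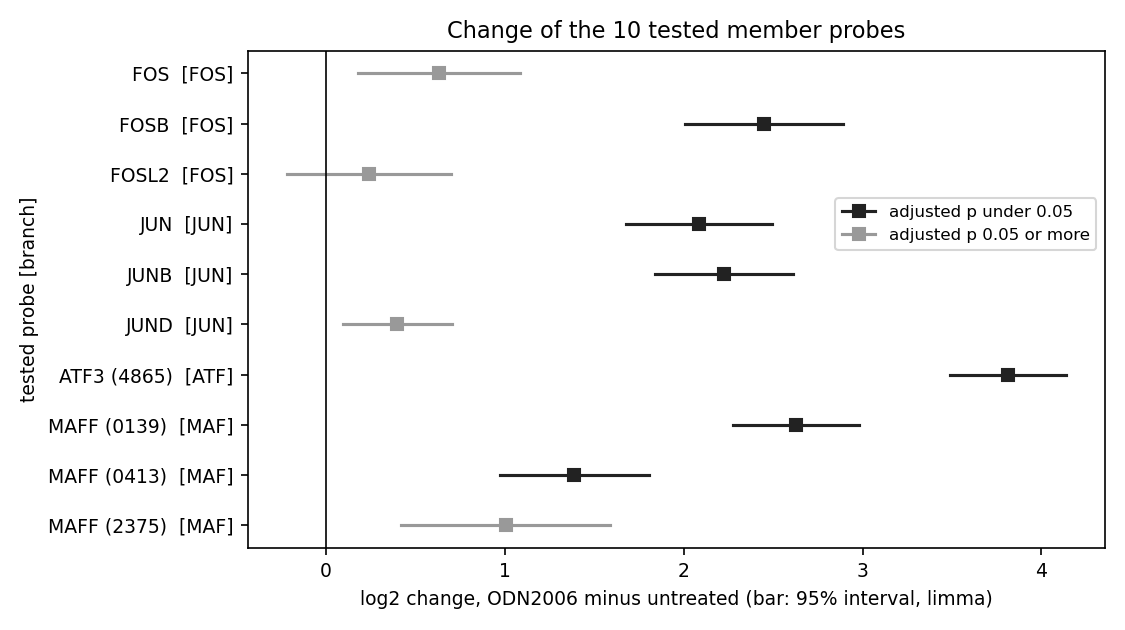
Log2 change of ODN2006 minus untreated (horizontal axis) for the 10 tested member probes (vertical axis, branch in brackets), with 95% limma intervals and black for an adjusted p under 0.05. ATF3 has the largest change at 3.81, the intervals of FOS and JUND lie above 0 although their adjusted p did not pass, and the 3 MAFF probes range from 1.01 to 2.63.

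The estimated changes differed in size between members of 1 branch. The change of FOSB exceeded that of FOS by 1.82 ± 0.34 SE and that of FOSL2 by 2.21 ± 0.54, and the changes of JUNB and JUN exceeded that of JUND by 1.82 ± 0.23 and 1.69 ± 0.27, all as within-array log2 differences. In each of these 4 pairs the within-array differences of the 3 ODN2006 arrays lay above those of the 3 untreated arrays. The change of FOS exceeded that of FOSL2 by 0.39 ± 0.38 and that of JUNB exceeded that of JUN by 0.14 ± 0.31, with overlapping groups. Without background correction the changes lay closer together, with FOSB at 1.29, FOS at 0.41 and FOSL2 at 0.077. In that fit JUN and JUNB each changed by 1.60 and JUND by 0.39. A two-sided exact permutation test over the arrays gave p = 0.10 for the 4 pairs that stood apart, 0.40 for FOS and FOSL2, and 0.60 for JUNB and JUN. Adjusted over the 6 pairs compared, these exact p-values were 0.15, 0.48 and 0.60. With 3 against 3 arrays this test cannot go below 0.10 and it ignores the replicate numbers, so it does not decide whether the changes of 2 members differ.

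**Figure D3:**
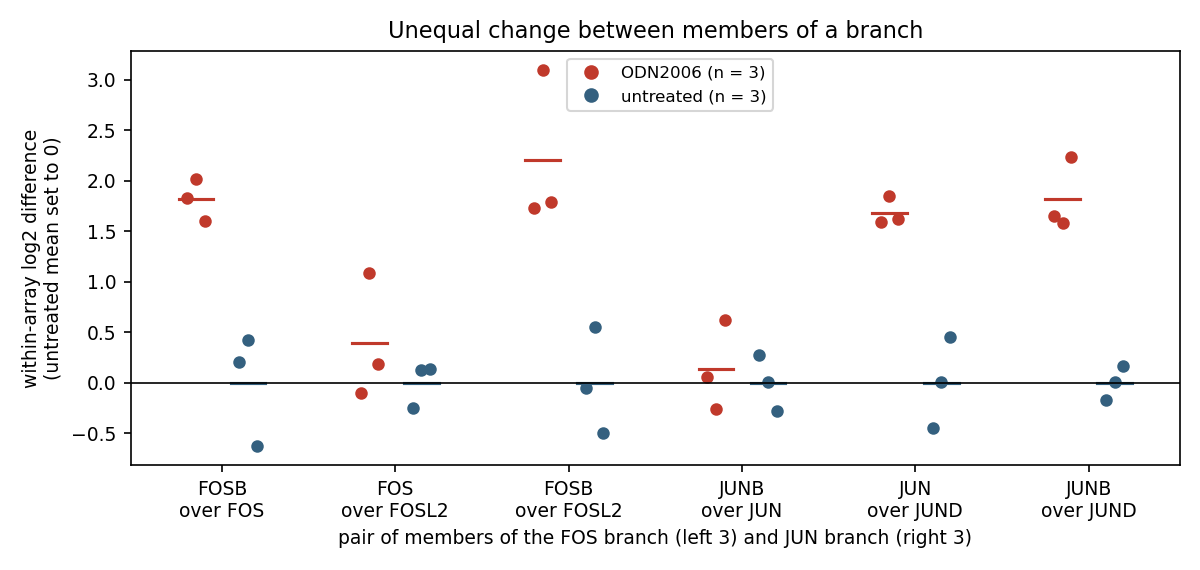
Within-array log2 difference between 2 members of a branch (vertical axis, untreated mean set to 0) for 6 pairs (horizontal axis), ODN2006 in red left of untreated in blue, 1 point per array with bars at the means (n = 3). FOSB over FOS, FOSB over FOSL2, JUN over JUND and JUNB over JUND stand apart, by 1.69 to 2.21, and the other 2 pairs overlap.

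ATF3 encodes a stress-inducible bZIP protein that, in mouse macrophages, is known to restrain cytokine genes induced through Toll-like receptors. Its brightest probe (ILMN_2374865) read 10.60, 10.28 and 10.61 after ODN2006, against 6.60, 6.73 and 6.72 in untreated cells, with no overlap. The change of 3.81 ± 0.15 SE (14.0-fold, adjusted p = 8.74e-09) was the largest among the 8 tested members and ranked 16 among all 8706 tested genes. Without background correction it was 2.88 and passed (adjusted p = 5.63e-08).

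The other 2 ATF3 probes did not meet the detection filter. ILMN_1791346 read 5.38, 6.02 and 6.35 after ODN2006, against 4.40, 4.45 and 4.35 in untreated cells, and was detected on 2 ODN2006 arrays and no untreated one. The difference was 1.60-fold when each untreated array was given the higher of its lowest detected signal and the probe's own value. The ODN2006 mean in it includes replicate 1, where the probe was not detected, so 1.60 is not a strict lower limit. ILMN_1661109 was detected on no array, at 4.36 ± 0.15 after ODN2006 and 4.41 ± 0.10 in untreated cells (SD, n = 3 each). The platform annotation gives this probe another reference transcript of the gene than it gives the other 2, and which transcripts each probe can detect was not analysed here.

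MAFF encodes a small MAF protein, which has no activation domain of its own and binds DNA with partners such as NFE2L2. All 3 MAFF probes were tested and differed in call. ILMN_1680139 read 9.24, 9.24 and 8.80 after ODN2006, against 6.54, 6.52 and 6.34 in untreated cells, and rose by 2.63 ± 0.16 SE (6.18-fold, adjusted p = 4.93e-07). ILMN_1700413 read 5.70, 6.18 and 6.05 after ODN2006, against 4.45, 4.96 and 4.35 in untreated cells. It was detected on no untreated array and so entered the test only through the ODN2006 group, with a limma change of 1.39 ± 0.19 SE (adjusted p = 0.000691). With each untreated array given the higher of its lowest detected signal and the probe's own value, the difference was at least 1.67-fold. That limit was not itself tested. Neither probe's groups overlapped.

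The brightest MAFF probe, ILMN_2322375, read 8.52, 9.36 and 8.95 after ODN2006, against 7.65, 7.59 and 8.57 in untreated cells. Untreated replicate 3 lay above the lowest ODN2006 array, and the change of 1.01 ± 0.27 SE (2.01-fold) did not pass (adjusted p = 0.0545). It passed with the replicate block (adjusted p = 0.0229), and same-numbered arrays differed by 0.87, 1.77 and 0.38. It also passed without untreated replicate 3 (1.32, adjusted p = 0.00617) or without ODN2006 replicate 1 (1.22, adjusted p = 0.0421), and as the mean of the 3 probes (1.67, adjusted p = 1.03e-05). Counted by probe, 6 of the 10 tested member probes rose, against 3.25% of all 13816 tested probes. ILMN_1700413 and the FOSL2 probe entered through the ODN2006 group alone. Of the 8 member probes detected on all 6 arrays 5 rose, against 2.52% of all such probes.

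BATF encodes a bZIP protein without an activation domain that pairs with JUN proteins and acts with IRF4 and IRF8. Its probe read 5.48, 5.39 and 5.72 after ODN2006, against 5.44, 5.03 and 5.39 in untreated cells, with overlapping groups and detection on 2 arrays of each group, so it was not tested. Of its partners, IRF4 rose to 7.91 ± 0.20 after ODN2006, against 6.97 ± 0.19 in untreated cells (SD, n = 3 each), a change of 0.93 ± 0.16 SE (adjusted p = 0.00422), and IRF8 differed by 0.24 ± 0.15 and did not pass (adjusted p = 0.530).

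With 6 arrays in 2 groups, genes are alike mainly by the size of their change. Among 8698 tested genes outside the set, those nearest to FOSB by Euclidean distance over the 6 arrays, after the untreated mean of each gene was subtracted, were PPP1R15A, IER3 and KLF6, at distances of 0.53, 0.61 and 0.62 and with changes of 2.51, 2.57 and 2.38. Nearest to JUNB were CD70, PDGFB and SDC4, at 0.22, 0.26 and 0.30, the first 2 with changes of 2.21 and 2.27. Nearest to ATF3 were TRIB1, IL23A and EGR1, at 0.57, 0.63 and 0.68 and with changes of 3.61, 4.13 and 3.78. All 9 of these genes passed the test, but they were picked for matching called members on these same arrays, so this adds no evidence.

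Among 45 other bZIP genes 25 were tested, of which 3 rose, 2 fell and 20 missed the threshold. Over all tested genes 3.41% rose and 1.81% fell. Their median log2 change was -0.09. NFE2L2, which encodes the oxidative stress regulator NRF2 and a partner of small MAF proteins, had the largest change, with 9.21 ± 0.09 after ODN2006 and 7.68 ± 0.08 in untreated cells (SD, n = 3 each; change 1.53 ± 0.14 SE, adjusted p = 1.75e-05). The relative NFE2L3 (0.59, adjusted p = 0.0490) and the stress factor ATF5 (0.63, adjusted p = 0.0450) rose narrowly, and CEBPA (-0.69, adjusted p = 0.0193) and CEBPB (-0.57, adjusted p = 0.0344), both factors of myeloid genes, fell. CEBPB was added to the named genes after its value was seen. ATF5 and CEBPB lost their calls whichever of the 6 arrays was left out (adjusted p up to 0.197 and 0.149), NFE2L3 for each array but untreated replicate 3 (up to 0.256), and CEBPA for ODN2006 replicates 1 and 3 and untreated replicates 2 and 3 (up to 0.0857). The small MAF gene MAFG had a change of -0.26 that did not pass, and BATF2, BATF3 and CREM were detected on no array at their brightest probes.

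Most genes for kinases and factors upstream of AP-1 did not pass. Of 33 such genes 25 were tested, 2 rose and none fell in limma (1 fell at an unadjusted p under 0.05, and 1 with the replicate block), and the median log2 change was 0.00. The shares over all tested genes were 3.41% higher and 1.81% lower. MAP3K8, the kinase that links Toll-like receptors to ERK, rose by 2.59 ± 0.15 SE (adjusted p = 3.40e-07), and MAP2K3, an activator of p38, by 0.76 ± 0.14 (adjusted p = 0.00575). The JNK genes MAPK8 and MAPK9 had -0.19 and -0.18, and SRF and ELK1, which bind the FOS promoter, 0.28 and 0.33. None of these 4 passed.

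Among genes that limit AP-1 signalling or degrade early transcripts, 6 of 16 tested rose, none fell in limma (1 fell at an unadjusted p under 0.05, and 1 with the replicate block) and the median log2 change was 0.31. Of all tested genes 3.41% rose and 1.81% fell. DUSP2 and DUSP5, phosphatases that act on MAP kinases, each rose by 3.10 (adjusted p = 3.50e-08 and 4.69e-08). ZFP36, which destabilises AU-rich transcripts, rose by 1.81 ± 0.15 SE (adjusted p = 7.12e-06), and DUSP1 by 1.66 ± 0.14 (adjusted p = 8.39e-06). Genes reported elsewhere as AP-1 targets rose in 14 of 19 tested cases, against 3.41% of all tested genes. None fell in limma, also at an unadjusted p under 0.05 (median 1.01). DUSP1 stands in both this list and that of limiting genes and is counted in both. By probe, CD44, counted as not passed, ranged from -0.03 at its brightest to 2.24. PLAUR, counted as risen, ranged from 0.21 to 1.14. IL6 and PTGS2 among the 14 were detected on no untreated array and entered the test through the ODN2006 group. The largest changes were those of the chemokine gene CXCL8 (5.49), the protease gene PLAU (5.42), the cytokine gene IL1B (5.37) and the activation marker gene CD69 (4.93), with adjusted p between 1.23e-10 and 2.73e-09. The target list was drawn up with results of these samples known and many of its genes are NF-kB targets too, so its count is not independent evidence of AP-1 activity.

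**Figure D4:**
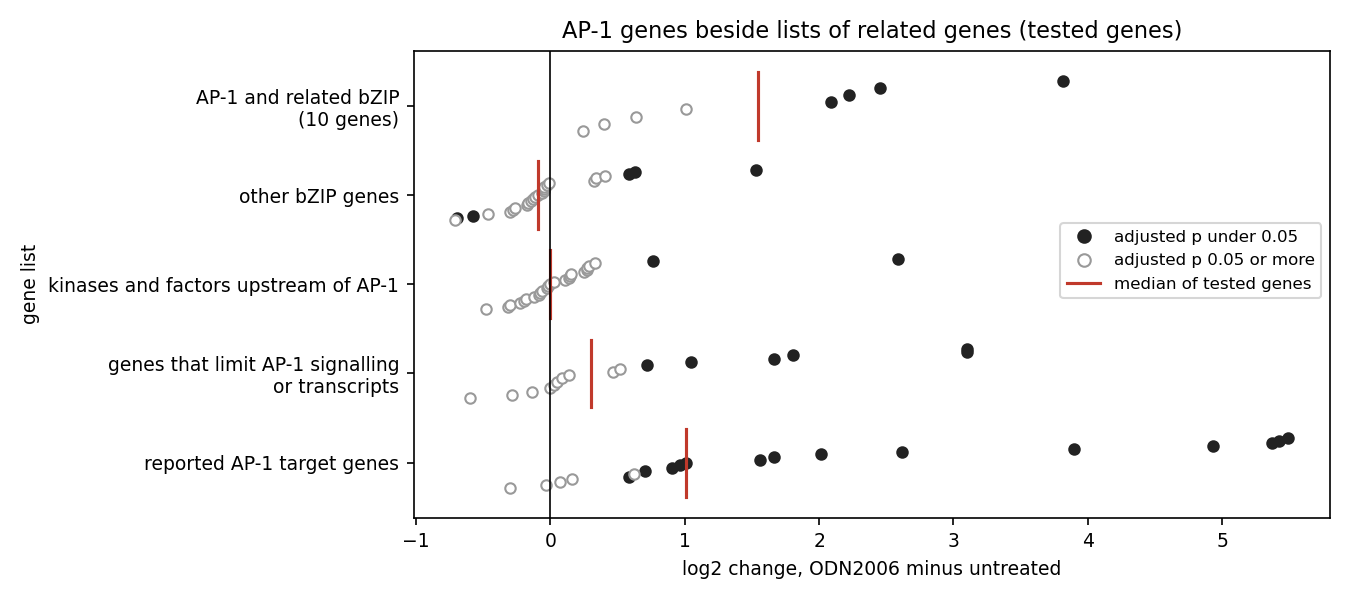
Log2 change of ODN2006 minus untreated (horizontal axis) for the tested genes of the AP-1 set and of 4 lists of related genes (vertical axis), black for an adjusted p under 0.05, open for the rest, red lines at the medians. The medians lie at 1.55 for the AP-1 set, -0.09 for other bZIP genes, 0.00 for upstream kinases and factors, 0.31 for limiting genes and 1.01 for reported targets.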

How the data were processed

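The authors deposited a non-normalized intensity of every probe on every array and its detection p-value, per the file headers. The authors' deposited log2 values came from limma according to the submitters' processing notes, and neither version nor steps are given in the sources used here. Across probes detected on no array those log2 values differed between the groups by a median of -0.45, against 0.00 after joint normalisation, so they served as an alternative only. The intensities were background-corrected (normexp, negative controls inferred from the detection p-values), given an offset of 16 and quantile-normalised together (neqc, limma 3.58.1, R 4.3.3).

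Probes detected at p under 0.01 on all 3 arrays of a group were tested with lmFit and eBayes, two-sided, without covariates. The same fit was also run on simulated data with means and spreads taken from these arrays. Symbols came from the platform annotation, updated through gene IDs with RefSeq, and a gene stands for its brightest tested probe. Arrays with the same replicate number deviated together from their groups (correlations of 0.41, 0.35 and 0.46 over tested probes), so the numbers were taken to pair the arrays, a pairing that comes from the data. The fit without a block was kept as the main one. Text names all members, up to 4 called genes of each list by size of change or, where none was called, the 2 brightest, the 3 nearest genes of the leading called member of a branch, and GAPDH and ACTB. Any other gene was named with its value known. The members and lists were chosen with earlier results of these data known. Alternatives tried were the deposited log2 values, median scaling, leaving out the background correction, a stricter filter or none, a trended robust prior, array weights, the replicate block, the mean of a gene's probes and leaving out each array. The number of arrays limits the precision.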

Additional observations from a re-analysis of the deposited data

How the results depend on the processing

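FOSB, JUN, JUNB and ATF3 kept direction and call under all 15 alternatives run, and FOSL2 was called under none of the 14 that tested it. With the replicate block 6 member genes rose in place of 4, FOS and MAFF being added, as with array weights and without untreated replicate 3. No member turned direction, and over the leave-one-out fits 4 to 6 members rose and none fell. The change of JUNB minus that of JUN turned to -0.10 without ODN2006 replicate 3 and -0.0029 without untreated replicate 3, in a leave-one-out range of -0.10 to 0.34. GAPDH turned to 0.024 without ODN2006 replicate 2, in a range of -0.18 to 0.024, and ACTB to 0.018 as the mean of its probes. Over all genes 158 fell, against 104 with median scaling, 58 without the filter on dim probes (20041 genes tested), 358 with the block and 51 to 115 with 1 array left out, which leaves fewer samples. The cause of the other shifts was not tested. Reported AP-1 targets that rose numbered 9 in place of 14 without the filter. Other bZIP genes that rose numbered 1 in place of 3 with median scaling, without the filter and on leaving out each array but untreated replicate 3, and those that fell 0 or 1 in place of 2 under median scaling, without the filter and with 1 array left out. Of the upstream genes 1 fell in place of 0 with the block and without background correction, and of the limiting genes 1 with the block, median scaling, the robust prior, array weights, the mean of probes or without ODN2006 replicate 1. The block changed no other call of a member. MAFF was also called under the stricter filter, as the mean of its probes and without ODN2006 replicate 1, and JUND without background correction. Signal over background limits FOSL1, FOSL2 and BATF.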
